A study of Saccharomyces cerevisiae with 6 samples.

Results

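BAS1, PHO2, PHO4, SWI5, HO, GCN4 and RAP1 are the 7 budding yeast genes described here: the transcription factor Bas1, its homeodomain partner Pho2, the other factors known to work with Pho2 (Pho4 and Swi5), the Pho2-Swi5 target HO, and Gcn4 and Rap1, which act at promoters that Bas1 also binds. They were chosen by gene symbol from the array annotation. Each had 1 probe set, and together they make up 7 of the 5449 S. cerevisiae genes tested. Messenger RNA was measured on Affymetrix arrays in 3 samples of the wild-type reference strain FY4 and 3 samples of a BAS1 deletion mutant. Per the labels, all cultures grew exponentially in batch in minimal medium with glucose at 30 °C and 300 rpm. The labels give neither the mating type of either strain, nor the marker or number of clones behind the deletion, nor whether replicates were separate cultures, so the p-values reflect the spread among these 6 samples alone, which may be technical.

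Bas1 is a Myb-family activator of purine synthesis, histidine and one-carbon genes. It binds DNA by itself but activates with Pho2, and intermediates of purine synthesis are known to promote the pairing of the proteins. Pho2 also pairs with Pho4, a basic helix-loop-helix factor that switches on phosphate genes, and with Swi5, a zinc finger factor that is transcribed as cells enter mitosis and activates genes at the start of G1. Gcn4 recognises a site much like that of Bas1 and is controlled chiefly through the translation of its mRNA. Much of the control over these factors therefore acts on the protein, through partner binding, phosphorylation or localisation, which mRNA arrays do not read.

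Levels are log2 intensities with the SD over 3 arrays, and differences are deletion minus wild type on the log2 scale. Differences were tested with limma, adjusted by Benjamini-Hochberg over all 5449 genes, with calls at an adjusted p under 0.05. Of all tested genes 59.5% were called, 39.6% higher and 19.8% lower in the deletion strain, and the median difference of all genes was 0.11. Array medians over the tested genes ran from 10.94 to 11.00 in FY4 and from 11.10 to 11.14 in the deletion strain. Over all probe sets, which include those for genes outside S. cerevisiae, the medians lay further apart. They ran from 7.81 to 7.89 in FY4 and from 8.47 to 8.65 in the deletion strain. All 16 control probe sets for 18S and 25S rRNA averaged lower in the deletion strain (median difference -3.09), and the part of this in the results below was not tested. In an exact two-sided permutation test, 3 against 3 arrays cannot give a p below 0.1.

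Of the 7 genes, 4 were called lower (BAS1, SWI5, HO and RAP1), 1 higher (PHO2), and PHO4 and GCN4 were not called. Read against 59.5% of all genes, 5 calls in 7 are no result about these genes as a group, nor are the 5 genes whose strains did not overlap, beside 67.5% of all genes. BAS1 itself was removed by design. Of the other 6 genes, 3 were called lower and 1 higher, beside 19.8% and 39.6% of all genes. These 6 were not tested as a group. After each array was centred on its median, SWI5, HO and RAP1 remained called lower, PHO4 joined them, PHO2 lost its call, and 33.1% of all genes were called lower and 27.2% higher. Quantile normalization called 35.5% of all genes lower and 24.9% higher, and cyclic loess 29.4% and 30.1%. Below, rescaling means these 3 alternatives, and a gene not called as deposited may be called after it.

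**Figure D1:**
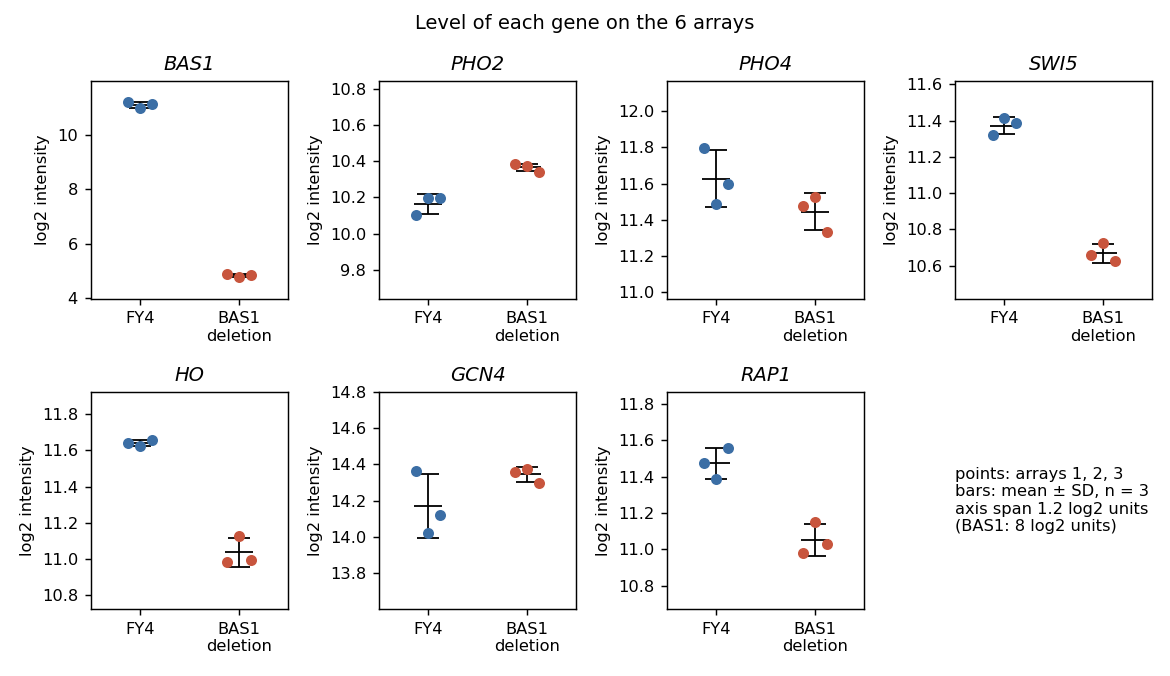
Log2 intensity (vertical axis) of each of the 7 genes on the FY4 and BAS1 deletion arrays. Points are arrays and bars are the mean ± SD of 3; each panel spans 1.2 log2 units except BAS1, which spans 8. SWI5, HO, RAP1 and BAS1 lie lower and PHO2 higher in the deletion strain without overlap, while the points of PHO4 and GCN4 overlap.

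BAS1 (YKR099W), the deleted gene, checks the labels. It read 11.18, 10.96 and 11.14 in FY4 and 4.86, 4.76 and 4.86 in the deletion strain. All 3 deletion values lay under the background level, which was taken from probe sets for genes outside S. cerevisiae and ran from 6.09 to 6.12 in those arrays. This puts BAS1 at least 31.9-fold down (limma adjusted p = 2.7e-07), a bound, since its probe set was not above background there. The genes that need Bas1 were low on the same arrays. All 9 measured Bas1-Pho2 targets of purine synthesis and all 8 targets listed outside it (HIS1, HIS4, HIS7, SHM2, MTD1, GCV1, GCV2 and GCV3) fell, beside 19.8% of all genes. Their median differences were -1.33 and -1.28, against 0.11 for all genes. These targets are a known effect of losing Bas1 and were listed with earlier results of these data in view.

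PHO2 (YDL106C) encodes the homeodomain protein that Bas1 needs in order to activate. Its mRNA was present in every array, at 10.10, 10.20 and 10.20 in FY4 and at 10.38, 10.37 and 10.34 in the deletion strain. The deletion arrays were all higher, by a gap of 0.14 between the nearest arrays of the strains. The difference was 0.20 (SE 0.05, adjusted p = 0.012), a 1.15-fold rise, and its 95% interval ran from 0.08 to 0.32. Of all genes, 39.6% were called higher, and 57.6% of the other genes had a lower difference than PHO2. Centring the arrays left 0.04 (adjusted p = 0.507), cyclic loess left 0.03 (adjusted p = 0.624), and quantile normalization turned the sign, at -0.0069 (adjusted p = 0.926). The Bas1 targets were low on the same arrays, and any tie between them and the PHO2 level was not tested.

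PHO4 (YFR034C) encodes the activator of phosphate-starvation genes, which the Pho80-Pho85 kinase keeps out of the nucleus when phosphate is plentiful. It read 11.80, 11.49 and 11.60 in FY4 and 11.48, 11.53 and 11.33 in the deletion strain. The strains overlapped, since the highest deletion array lay above the lowest FY4 array. The difference of -0.18 (SE 0.09, adjusted p = 0.141) was not called as deposited. It was called lower after array centring (-0.33, adjusted p = 0.0244), after quantile normalization (-0.30, adjusted p = 0.0392) and with array weights (-0.27, adjusted p = 0.0439), but not after cyclic loess (-0.26, adjusted p = 0.0618).

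Genes that Pho4 and Pho2 activate were more often called higher than lower in the values as deposited. Of 14 measured, 8 rose and 1 fell, against 39.6% and 19.8% of all genes, with a median of 0.28. The split depended on scaling, as did the shares over all genes. After array centring 6 rose and 4 fell, beside 27.2% and 33.1% of all genes. Quantile normalization gave 5 rises and 6 falls, beside 24.9% and 35.5%, and cyclic loess 7 and 2, beside 30.1% and 29.4%. PHO84, the high-affinity phosphate transporter gene, rose from 7.27 ± 0.21 to 11.00 ± 0.11 (SD, n = 3), 13.2-fold. PHM8, a phosphatase gene, rose 13.4-fold from 6.59 ± 0.41 (SD, n = 3), a level at which 2 of its 3 FY4 arrays were above background. SPL2, which encodes a regulator of low-affinity phosphate uptake, was at background in FY4 and at least 1.71-fold higher in the deletion strain. GIT1, a glycerophosphoinositol transporter gene, was 1.64-fold higher as deposited, but its difference was -0.02 after quantile normalization. PHO5, the secreted acid phosphatase gene whose promoter is the classical site of joint Pho4 and Pho2 action, differed by -0.07 as deposited (SE 0.06, adjusted p = 0.323). PHO5 was called lower after each rescaling, at -0.43 after quantile normalization, -0.23 after centring and -0.33 after cyclic loess. VTC2, a subunit gene of the polyphosphate polymerase, was the member that fell (-0.38, SE 0.07).

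Of 5 regulators of Pho4, 2 rose and 1 fell as deposited, beside 39.6% and 19.8% of all genes. PHO81, which encodes the inhibitor of the Pho80-Pho85 kinase and is itself a Pho4 target, rose 1.29-fold (difference 0.37, SE 0.04, adjusted p = 6.7e-04). PHO85, the kinase gene, fell by 0.16 (SE 0.04, adjusted p = 0.017), and its cyclin gene PHO80 differed by 0.13 (SE 0.06, adjusted p = 0.11). MSN5, the exportin gene for phosphorylated Pho4, rose by 0.21 (SE 0.05), and PSE1, the importin gene, differed by -0.13 (SE 0.05, adjusted p = 0.0521). MSN5 was not called after quantile normalization or centring, and PSE1 was called lower after each rescaling. The median of these 5 genes, 0.13, was close to the 0.11 of all genes and turned negative under each rescaling.

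**Figure D2:**
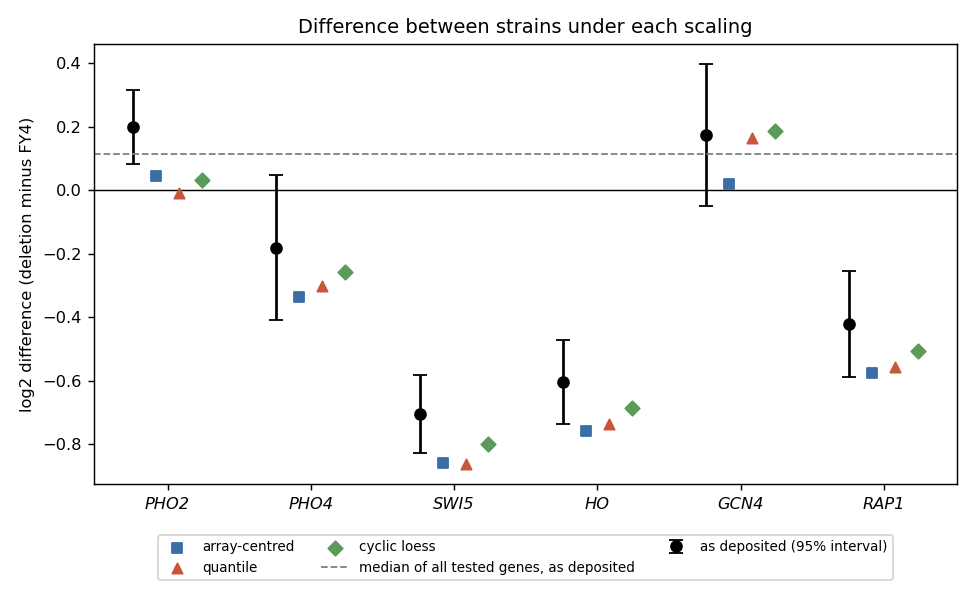
Log2 difference between strains (vertical axis, deletion minus FY4) for the 6 genes other than BAS1, as deposited with the 95% interval from limma and after 3 other scalings of the arrays. SWI5, HO and RAP1 stay below 0 under each scaling, and PHO2 lies between -0.0069 and 0.04 once arrays are rescaled.

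SWI5 (YDR146C), the Pho2 partner of the cell cycle, showed the largest fall of the 6 genes that were not deleted. It read 11.32, 11.41 and 11.39 in FY4 and 10.66, 10.72 and 10.62 in the deletion strain. The strains were separated by 0.60, well over the SD of 0.05 within each. SWI5 fell 1.63-fold (difference -0.70, SE 0.05, adjusted p = 7.5e-05), and only 2.46% of the other genes had a lower difference. It was called lower under all 19 alternatives run, with differences from -0.86 to -0.68.

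SWI5 is transcribed late in the cycle as a member of the CLB2 cluster, a group of mitotic genes under Mcm1 and the forkhead factors. Of the 9 other members of that list measured here, 8 fell and none rose, where 19.8% of all genes fell, and their median difference was -0.48. CLB1 and CLB2, the mitotic cyclin genes, fell 1.97-fold and 1.84-fold, BUD4, a bud-site gene, 1.94-fold, and CDC5, the polo kinase gene, 1.72-fold. MYO1, the myosin gene of the cytokinetic ring, was the member not called, at -0.37 (SE 0.15, adjusted p = 0.0658). After each rescaling all 9 were called lower, beside 29.4% to 35.5% of all genes. The difference of SWI5 lay inside the range of the 9, from -0.98 to -0.37. In RNA from a whole culture, fewer cells in mitosis and less of these mRNAs per mitotic cell cannot be told apart. MCM1, whose product acts at these promoters, differed by 0.09 (SE 0.07, adjusted p = 0.295).

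Of 8 measured targets of Swi5, 6 fell and 1 rose, against 19.8% and 39.6% of all genes, with a median of -0.27. Their differences ran from -0.51 to 0.33, each smaller in size than the -0.70 of SWI5 as deposited. After quantile normalization PCL2 stood at -0.95 and SWI5 at -0.86. PCL2, a cyclin gene for Pho85, fell 1.42-fold, PIR1, a cell wall protein gene, 1.35-fold, and CDC6, a replication licensing gene, 1.24-fold. ASH1, which encodes the daughter-cell repressor of HO, fell from 12.09 ± 0.03 to 11.84 ± 0.04 (SD, n = 3; difference -0.25, SE 0.04, adjusted p = 0.004). RME1, a meiotic repressor gene, went the other way and rose 1.26-fold, and PCL9, another Pho85 cyclin gene, was not called (difference 0.0056), though it was called lower after quantile normalization (-0.20) and cyclic loess (-0.16).

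**Figure D3:**
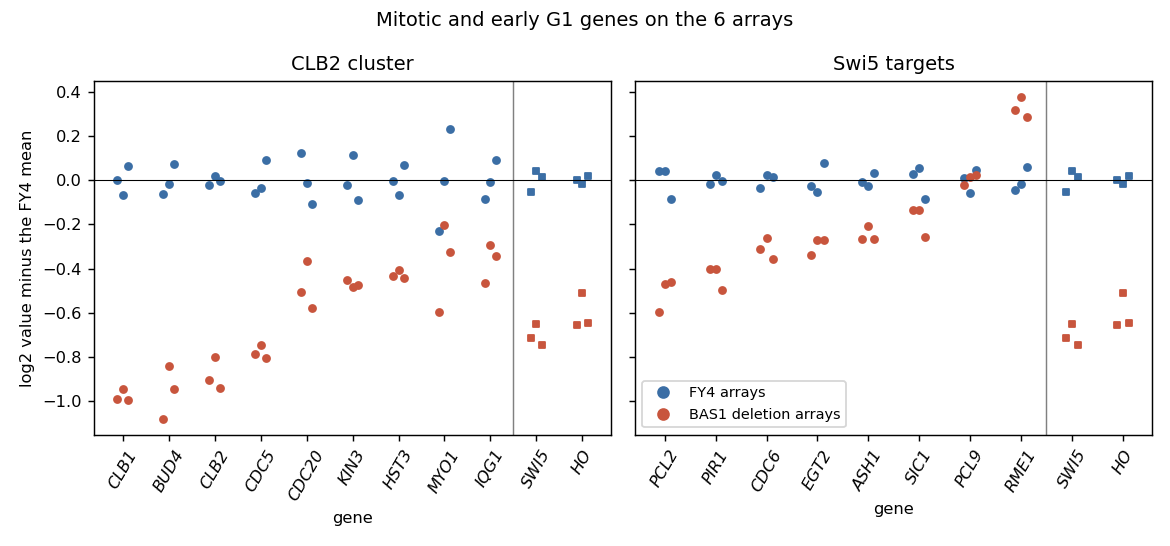
Log2 value of each gene on each array minus the gene's FY4 mean (vertical axis), for the CLB2 cluster (left) and the Swi5 targets (right), with SWI5 and HO as squares beside both. On each deletion array CLB1, BUD4, CLB2 and CDC5 lie below SWI5, and the Swi5 targets lie nearer to 0, with RME1 above it.

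HO (YDL227C) encodes the endonuclease that starts mating-type switching, and is transcribed in late G1 in haploid mother cells after Swi5 and Pho2 have bound far upstream of it. Strains of the S288C lineage, to which FY4 belongs, are known to carry an HO allele whose product is inactive. An mRNA level in a whole culture does not separate promoter activity from mRNA decay or the share of cells in late G1. HO read 11.64, 11.62 and 11.66 in FY4 and 10.99, 11.13 and 11.00 in the deletion strain. The FY4 arrays differed from each other by less than 0.04, and the strains by at least 0.49. HO fell 1.52-fold (difference -0.60, SE 0.05, adjusted p = 1.9e-04), with 3.56% of the other genes lower. It was called lower under all 19 alternatives, from -0.76 to -0.58.

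HO fell by 0.60 and SWI5 fell by 0.70. Taken within each array, the log2 ratio of SWI5 to HO differed by -0.10 between strains. Its arrays did not overlap between strains, and an exact two-sided permutation test gave p = 0.1, or 0.111 adjusted over the 21 pairs of members, the smallest value reached. Of the 21 pairs 19 did not overlap, as did 13 of the 15 without BAS1, so this is no result about SWI5 and HO. Relative to RAP1, SWI5 fell by 0.28 and HO fell by 0.18, with the same p. Among 23 measured regulators of HO, 7 fell and 3 rose, beside 19.8% and 39.6% of all genes. After array centring the counts were 13 and 1, beside 33.1% and 27.2%. WHI5, the G1 repressor gene of SBF, fell 1.99-fold, from 10.29 ± 0.09 to 9.29 ± 0.06 (SD, n = 3). CLN3, the G1 cyclin gene upstream of SBF, rose 1.61-fold, from 11.64 ± 0.08 to 12.33 ± 0.04 (SD, n = 3). SBF, the factor that triggers HO in late G1, is made of Swi4 and Swi6. SWI4 differed by -0.01 (SE 0.08, adjusted p = 0.895), while SWI6 fell 1.44-fold. SHE3, which encodes an adaptor for carrying ASH1 mRNA to the daughter cell, fell 1.37-fold. Of the subunit genes of the SWI/SNF remodeller, SWI1 fell by 0.34 and SWI3 by 0.22. SNF2, the ATPase gene, was higher by 0.19 (SE 0.05) as deposited and was not called after any rescaling. SNF5 and SNF6 were not called as deposited and were called lower after each rescaling, by 0.30 and 0.30 after centring.

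Since HO is silent in a/alpha diploids, markers of mating type were read on the same arrays. All 6 a-cell genes and all 7 haploid genes lay above background in every array. The summed intensity of the a-cell genes, on the log2 scale, ran from 15.38 to 15.60 in FY4 and from 15.31 to 15.60 in the deletion strain. Such sums follow the brightest genes. Singly, BAR1 was called lower (difference -0.61) and ASG7 higher (0.55), beside 19.8% and 39.6% of all genes. The other 4 a-cell genes were not called as deposited. The summed intensity of the 7 haploid genes ran from 14.07 to 14.09 in FY4 and from 13.89 to 13.95 in the deletion strain. Of these 7, 3 were called lower and 1 higher, beside 19.8% and 39.6% of all genes. After each rescaling 4 were called lower and 1 higher, beside 29.4% to 35.5% and 24.9% to 30.1% of all genes. The 4 alpha-cell genes were all called higher as deposited, beside 39.6% of all genes. Their summed levels were 10.40 to 10.57 in FY4 and 11.62 to 11.75 in the deletion strain. Quantile normalization left 2 called higher and 1 lower, beside 24.9% and 35.5% of all genes. Centring and cyclic loess each left 3 called higher, beside 27.2% and 30.1% of all genes. MF(ALPHA)1 was at background in FY4 and at least 11.0-fold higher in the deletion strain. STE3 was 4.34-fold and SAG1 1.35-fold higher, though SAG1 was not called after quantile normalization (0.22). MF(ALPHA)2 was 1.23-fold higher as deposited but turned lower (-0.56) after quantile normalization. It was not called after centring or cyclic loess. The part of these genes in the HO result was not tested.

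GCN4 (YEL009C) encodes the activator of amino acid synthesis genes. Its mRNA read 14.37, 14.02 and 14.12 in FY4 and 14.36, 14.38 and 14.30 in the deletion strain. One FY4 array was as high as the deletion arrays, so the strains overlapped, and the FY4 spread (SD 0.18) exceeded the deletion spread (SD 0.04). The difference of 0.17 (SE 0.09, adjusted p = 0.145) was not called, and its 95% interval ran from -0.05 to 0.40. Without FY4 replicate 1 it was 0.27 (adjusted p = 0.017), the 1 setting of 19 in which GCN4 was called. FY4 replicate 1 was also the highest array of PHO4. Taken within each array, the log2 ratio of PHO4 to GCN4 varied by an SD of 0.02 in FY4 and 0.06 in the deletion strain. This ratio differed by -0.36 between strains, without overlap (exact permutation p = 0.1, 0.111 adjusted over 21 pairs). The lack of overlap was shared by 19 of the 21 pairs.

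Gcn4 itself is limited by translation and by breakdown of the protein, and the genes of that control were called in both directions. Of 15 measured, 7 fell and 2 rose, beside 19.8% and 39.6% of all genes, and 11 fell and 1 rose after array centring, beside 33.1% and 27.2%. The largest difference was that of PCL5, which encodes the Pho85 cyclin that marks Gcn4 for breakdown and is a Gcn4 target. It rose 4.33-fold, from 10.79 ± 0.04 to 12.90 ± 0.11 (SD, n = 3; adjusted p = 4.4e-06). GCN20 and GCN1, which help the kinase Gcn2 sense uncharged tRNA, fell 1.31-fold and 1.29-fold, and GCD1, a subunit gene of the translation factor eIF2B, fell 1.30-fold. GCN2 differed by -0.15 (SE 0.07, adjusted p = 0.114) and was called lower after each rescaling (-0.30 after centring). Of 18 measured Gcn4 targets outside purine synthesis, 12 rose and 2 fell, against 39.6% and 19.8% of all genes, with a median of 0.27. After array centring 8 rose and 3 fell, beside 27.2% and 33.1% of all genes. SNZ1, a vitamin B6 synthesis gene, rose 5.25-fold, ARG1 1.58-fold, ARO3 1.51-fold and HOM3 1.44-fold.

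**Figure D4:**
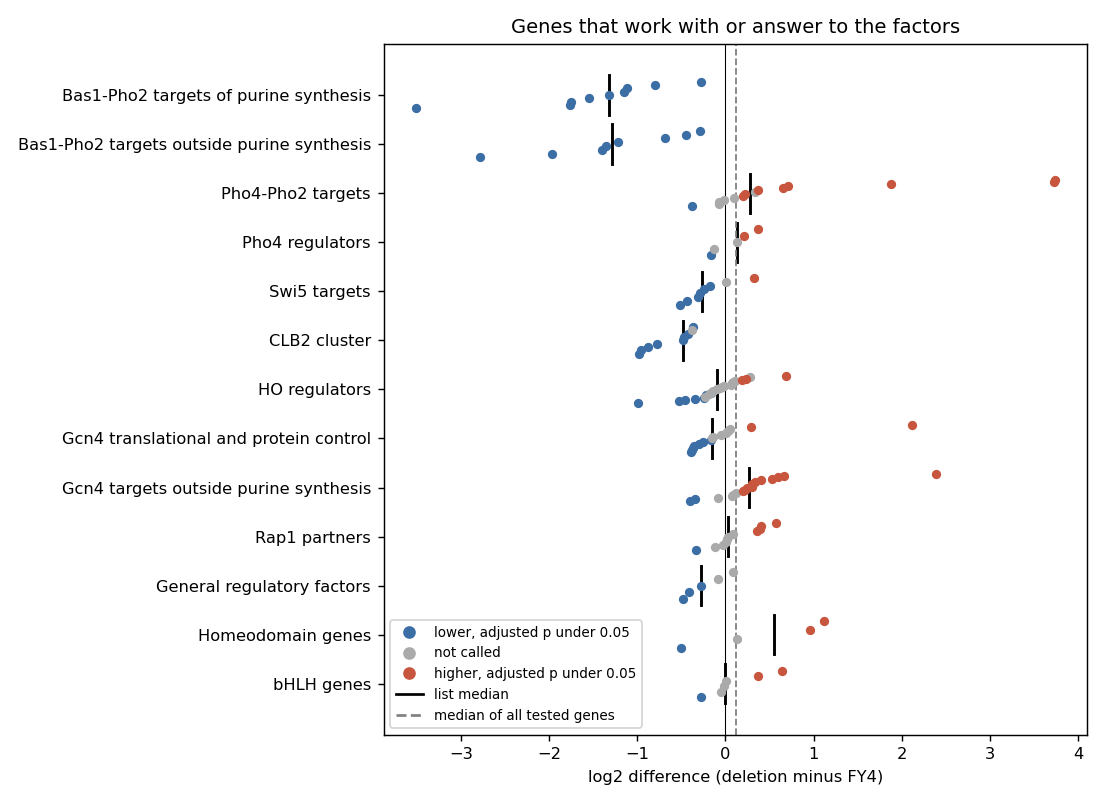
Log2 difference between strains (horizontal axis) of every measured gene in 13 lists of targets, regulators and relatives of the factors. Points are genes coloured by their limma call and black bars are list medians, which run from -1.33 for the purine targets of Bas1 and Pho2 to 0.55 for other homeodomain genes. The dashed line marks the median of all tested genes, 0.11.

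RAP1 (YNL216W) encodes an essential DNA-binding protein of ribosomal protein and glycolytic promoters, telomeres and silenced loci, and helps Bas1, Pho2 and Gcn4 to act at HIS4. It read 11.48, 11.39 and 11.56 in FY4 and 10.98, 11.15 and 11.03 in the deletion strain. The strains did not overlap, with 0.24 between the nearest arrays. RAP1 fell 1.34-fold (difference -0.42, SE 0.07, adjusted p = 0.0025), with 7.65% of the other genes lower. The fall was called under all 19 alternatives, from -0.58 to -0.38.

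Of 5 other general regulatory factors, which bind many promoters as Rap1 does, 3 fell and none rose as deposited, beside 19.8% and 39.6% of all genes. REB1 fell 1.39-fold, TBF1 1.33-fold and CBF1 1.21-fold, while ABF1 differed by -0.08 (SE 0.05, adjusted p = 0.219) and MCM1 was given above. ABF1 was called lower after each rescaling (-0.24 after centring), which made 4 of the 5 lower, beside 29.4% to 35.5% of all genes. Of 11 measured factors that work with Rap1, 4 rose and 1 fell as deposited, and 4 rose and 4 fell after array centring. The first counts are near or below the 39.6% and 19.8% of all genes and are no result about these factors. The centred counts stand beside 27.2% of all genes higher and 33.1% lower. SFP1 and IFH1, activators of ribosomal protein genes, rose 1.49-fold and 1.31-fold, and GCR1 and GCR2, partners of Rap1 at glycolytic genes, rose 1.32-fold and 1.28-fold. FHL1, the forkhead protein gene at ribosomal protein promoters, fell 1.26-fold (adjusted p = 0.016). Of the silencing and telomere partners SIR2, SIR3, SIR4, RIF1 and RIF2, none was called by limma as deposited or had an unadjusted p under 0.05 there, with differences from -0.12 to 0.09. SIR3 was called lower after each rescaling (-0.27 after centring), SIR2 after quantile normalization and centring, RIF2 after quantile normalization (-0.71) and cyclic loess (-0.30), and RIF1 after quantile normalization (-0.25).

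The chromosomal neighbours of each member that were also tested are given for comparison. Beside the deleted BAS1, UBP11 rose from 10.13 to 11.04 (difference 0.91, SE 0.07, adjusted p = 8.9e-05) and SKG1 rose by 0.29 (SE 0.08, adjusted p = 0.0223), a call lost after each rescaling. Beside SWI5, EKI1 fell by 0.28 (SE 0.07) and TAF12 differed by 0.08 (SE 0.05, adjusted p = 0.223). Beside HO, GCS1 fell by 0.24 (SE 0.05) and SSB1 differed by -0.11 (SE 0.05, adjusted p = 0.0772; called lower after centring, at -0.26). The neighbours of RAP1 were not called as deposited, with MGS1 at -0.11 and IES2 at -0.06, but both were called lower after each rescaling. After centring MGS1 stood at -0.27 and IES2 at -0.21, beside -0.58 for RAP1. Beside PHO2, MSS2 rose by 0.22 (SE 0.06) as deposited, a call lost after each rescaling, and NSE4 was called only after quantile normalization (-0.71) and cyclic loess (-0.33) among the scalings. QCR6, beside PHO4, rose by 1.03 (SE 0.07), and YFR035C, on its other side, was called lower after each rescaling (-0.53 after centring) but not as deposited. MIT1, beside GCN4, fell by 0.46 (SE 0.05), and GLC3 was called under none of the scalings. These neighbours were taken by position, in the order of the RefSeq gene table.

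The genes most like each member were found by Pearson correlation of log2 values over the 6 arrays, a description without a test. With 3 arrays a strain, any gene with a clean difference between strains correlates highly, and 839 of 5448 other genes passed 0.9 with SWI5. The closest to BAS1 were BOI1 (r = 0.9998, difference -1.09) and ADE17 (r = 0.9996, difference -3.51). The closest to SWI5 were NSG1 (r = 0.9992, difference -0.64) and GCN20 (r = 0.9990), and those to HO were URA4 (r = 0.9994, difference -0.47) and SER3 (r = 0.9993, difference -1.73). RAP1 was most like ALG7 (r = 0.9977) and FIR1 (r = 0.9971), and PHO2 most like LAM4 (r = 0.9979) and LDH1 (r = 0.9978). PHO4 and GCN4 had few close genes: 30 and 23 passed 0.9. For PHO4 they were led by BIO2 (r = 0.9841) and PPM2 (r = 0.9824), and for GCN4 by BGL2 (r = 0.9707) and LCP5 (r = 0.9594). None of them was called between strains as deposited. PPM2 was called lower after each rescaling (-0.45 after centring), and BIO2 after quantile normalization (-0.21) and centring (-0.26).

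Poly-A spike controls, added to the RNA before labelling, divided the arrays into 3 low (2 FY4, 1 deletion) and 3 high (1 FY4, 2 deletion). SWI5 differed by -0.71 in both sets, HO by -0.65 and -0.60, and RAP1 by -0.45 and -0.47, each still called. PHO2 stood at 0.23 and 0.16 and was called in neither (adjusted p = 0.127 and 0.171). Each set compares 2 arrays with 1, whose spread has to be borrowed from the rest.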

How the data were processed

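Biotin-labelled RNA from 6 yeast samples was read on Affymetrix arrays, per the labels' protocols. Each probe set has a deposited intensity per array, not log-transformed. R 2.8.0, affy and RMA appear in the submitters' processing notes. RMA corrects background, normalizes arrays and summarises probes, makes no detection calls and understates changes of dim genes. The number of arrays limits the precision. Here log2 was taken, and probe sets were named from the platform annotation through gene identifiers in the RefSeq table (assembly R64), with each gene at its brightest probe set. No coordinates are printed, since the sources used here name no build for the array annotation.

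The test between strains was limma's (version 3.58.1, R 4.3.3; group as the only term, moderated standard errors) over 5449 genes. Background was set at the 95th percentile over probe sets for genes outside S. cerevisiae, 6.09 as a mean across arrays, or that of a given array if this was above it. A group below it gives a bound. The test was checked on simulated data.

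The members and lists were chosen with earlier results of these data known. All members were named, and up to 4 genes a list: the largest differences among called genes. PHO80, PHO85, PHO81, SWI4, ASH1 and any gene of a list of 5 or fewer were also allowed. Further genes, such as PHO5, VTC2, MYO1, PCL9, GCN2, FHL1, the SWI/SNF and silencing genes and the chromosomal neighbours, were named after their values were seen. ADE5,7 and PHO12 were not analysed here, and some results are not reported here. Alternatives were other normalizations, probe set and filter rules, a variance trend, array weights, a threshold of 0.01, the replicate number or spike level as a block, each spike level alone, and leaving out each replicate.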

Additional observations from a re-analysis of the deposited data

Results flagged for a closer look

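A reporter probe set, which belongs to no gene of the annotation used here, was bright in the deletion strain and dark in FY4. It read 14.39 ± 0.03 (SD, n = 3) in the deletion strain and 4.27 ± 0.25 (SD, n = 3), at background, in FY4, on the arrays in which BAS1 was at background in the deletion strain. Another reporter probe set named after the same sequence entry was at background in both strains. It read 5.12 ± 0.22 in FY4 and 5.04 ± 0.10 in the deletion strain (SD, n = 3). What the bright probe set reads was not tested.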

How the results depend on the processing

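BAS1, SWI5, HO and RAP1 kept their direction and call under all 19 alternatives. PHO2 (0.20) turned to -0.0069 after quantile normalization. It lost its call after array centring (0.045), cyclic loess (0.032), against all probe sets (0.20, adjusted p = 0.0505), at the 0.01 threshold (0.20), and within low-spike (0.23) and high-spike (0.16) arrays alone. PHO4 gained a call after quantile normalization (-0.30), centring (-0.33) and array weights (-0.27). With 1 array left out, GCN4 ran from 0.10 to 0.27 (called without FY4 replicate 1), PHO2 from 0.17 to 0.22 and PHO4 from -0.25 to -0.10. The cause was not tested, except that a threshold of 0.01 and sets of 2 arrays against 1 call fewer genes by construction. Counts over all genes moved likewise: quantile normalization called 1356 higher and 1935 lower, array centring 1803 lower, the 0.01 threshold 679 lower, low-spike arrays 1593 (1102 higher, 491 lower) and high-spike arrays 614 lower, against 3241 (2160 higher, 1081 lower). The median of the Pho4 regulators turned to -0.059 after quantile normalization, -0.024 after centring and -0.0018 after cyclic loess. Within the low-spike and high-spike arrays the median of the Swi5 targets was -0.27 and -0.29, and that of the Gcn4 targets 0.27 and 0.25. The median of all genes there was 0.07 and 0.14. Fewer genes of both lists were called within each spike level, as was so over all genes. Same-numbered arrays of the strains deviated with correlations of 0.439, -0.515 and -0.442, so the numbers do not pair them. Of differently numbered arrays, FY4 3 with deletion 2 stood at 0.751 and FY4 2 with deletion 3 at 0.456. The remaining pairs ran from -0.530 to 0.137. What these arrays share was not tested, and the main fit has no term for it. The fit with the replicate block called 2130 higher and 1010 lower genes and changed no member's call (PHO2 0.20, SWI5 -0.70). Dim signals limit BAS1 in the deletion strain and SPL2, PHM8 and GIT1 in FY4.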

Other observations

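Relatives of the factors by protein family differed among themselves. Of 4 other homeodomain genes, TOS8 rose 2.17-fold, from 9.34 ± 0.10 to 10.46 ± 0.07 (SD, n = 3), and CUP9, known as a repressor of peptide transport, rose 1.95-fold, from 10.69 ± 0.05 to 11.65 ± 0.07 (SD, n = 3). YHP1, a repressor of early cell cycle genes, fell 1.42-fold (difference -0.50, SE 0.05, adjusted p = 2.6e-04), and its relative YOX1 differed by 0.13 (SE 0.06, adjusted p = 0.0994). Of 6 genes of the basic helix-loop-helix family to which Pho4 belongs, TYE7, an activator of glycolytic genes, rose 1.56-fold, RTG3, of the retrograde pathway from mitochondria, rose 1.29-fold, and CBF1 fell 1.21-fold. INO2 and INO4, the pair that activates phospholipid genes, differed by -0.02 and -0.05, and RTG1, the partner of RTG3, by 0.0047, none of them called as deposited. RTG1 was called lower after quantile normalization (-0.41) and cyclic loess (-0.29), where RTG3 lost its call. As deposited, 2 of the 4 homeodomain genes and 2 of these 6 were called higher, and 1 of each lower, beside 39.6% and 19.8% of all genes. Under quantile normalization and cyclic loess, 1 of the 6 was called higher and 2 lower. The shares of all genes were then 24.9% and 35.5%, and 30.1% and 29.4%. These counts are no result about either family.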
